A study of Mus musculus with 12 samples.

Results

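Genes of homologous recombination and of the response to DNA damage were examined in plasma cells of a recall response, as 32 named genes in 5 functional groups: recombination (8 genes), the Fanconi pathway (9), mismatch repair (4), hypermutation (2) and checkpoint and break signalling (9). Each gene was read from the probe set that names it alone and, where there were several, from the one with the highest mean over the 12 arrays. Such a probe set was found for 31 of the 32, out of 19938 genes represented in this way. Xrcc2, a recombination gene, was not analysed here. All 31 lay above the filter on low values (mean log2 value over 5.5), among 14953 genes tested.

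The study set 6 arrays of Zbtb32-/- cells against 6 arrays of wild-type (Zbtb32 +/+) cells. The labels call the cells bone marrow plasma cells, while the title of the series speaks of memory B cells. Donors of both genotypes carried CD45.2 and were immune to NP-CGG, a hapten on a carrier protein. Their splenocytes were given to CD45.1 recipients that were challenged with NP-CGG, and 7 days later NP-binding CD45.2+ CD138+ cells lacking B220, Ly6g, CD11b and CD45.1 were sorted from bone marrow. Zbtb32 encodes a BTB zinc finger transcription factor. The recipients' own cells were left out of the sort through CD45.1, the recipients are not stated to lack Zbtb32, and the age and strain of the mice, and whether mice were pooled, are not given in the sources used here. The series text calls the arrays of a genotype biological replicates. The Zbtb32 probe set ran from 6.47 through a median of 6.53 to 6.73 in Zbtb32-/- arrays and from 6.39 through 6.68 to 6.88 in wild-type arrays, on the log2 scale. These ranges overlap (difference -0.11, two-sided exact permutation p = 0.173), and because the labels do not say which part of Zbtb32 is deleted, the probe set is no check of the genotypes.

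Homologous recombination repairs double-strand breaks and broken replication forks by copying the sister chromatid, and Brca1, Palb2 and Brca2 act together at the resected end. The Fanconi proteins handle crosslinks between DNA strands, mismatch repair corrects copying errors, and the kinases Atm and Atr sense breaks and stalled forks and pass the signal to Chek2 and Chek1. In B cells, Ung and the mismatch factors process uracils in antibody genes, which leads to hypermutation and class switching. Many recombination genes are transcribed mainly in dividing cells, through E2F factors at their promoters.

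For this reason the 250 bases before the start site were read for the members given in the RefSeq promoter table (GRCm38.p6), which held 27 of the 31. The letters of an E2F site (TTTGGCGC, TTTCGCGC, TTTCCCGC or TTTGCCGC, both strands) stood in 6 of these 27 (22.2%), Bard1, Brca2, Chek2, Fancg, Mdc1 and Msh3, and in 2.16% of 27025 genes of the table. CCAAT, on either strand, stood in 14 of 27 members (51.9%) and in 37.5% of all genes. The letters of the CHR element of late cell cycle genes (TTTGAA or TTCGAA, both strands) stood in 2 of 27 members (7.41%) and in 19.6% of all. A match describes the letters and is not a binding site. Printed here are the windows of the 2 members with the smallest p-values for genotype, Blm and Brca2, and of Parp1, whose probe set had the highest mean. They run 5′ to 3′ on the gene's strand, with matched letters in capitals and no overlap between matches. Blm lies on the minus strand (chr7:80534999-80535248) and holds CCAAT letters 186 and 161 bases before the start. Brca2 lies on the plus strand (chr5:150522371-150522620) and holds the E2F letters GCGGGAAA 168 bases before the start. Parp1 lies on the plus strand (chr1:180568641-180568890), and the searched letters are not in its window.
Blm: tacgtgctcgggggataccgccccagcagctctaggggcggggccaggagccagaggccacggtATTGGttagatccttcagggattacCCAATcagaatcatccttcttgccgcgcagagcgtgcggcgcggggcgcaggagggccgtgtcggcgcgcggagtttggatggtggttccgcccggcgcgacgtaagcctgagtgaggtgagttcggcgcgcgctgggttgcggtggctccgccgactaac
Brca2: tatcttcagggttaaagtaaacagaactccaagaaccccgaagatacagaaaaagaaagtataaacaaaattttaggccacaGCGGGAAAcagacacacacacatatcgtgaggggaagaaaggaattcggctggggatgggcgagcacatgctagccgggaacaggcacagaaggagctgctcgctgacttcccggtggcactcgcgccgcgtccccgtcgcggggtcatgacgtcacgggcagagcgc
Parp1: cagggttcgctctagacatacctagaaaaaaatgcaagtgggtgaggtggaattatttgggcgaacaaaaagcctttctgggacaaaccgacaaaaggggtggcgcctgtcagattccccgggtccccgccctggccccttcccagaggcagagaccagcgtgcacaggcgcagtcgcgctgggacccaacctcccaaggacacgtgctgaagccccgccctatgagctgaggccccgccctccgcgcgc

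Most of these genes had small positive differences between Zbtb32-/- and wild-type cells, and none passed the test across all genes. Of the 31 members 25 (80.6%) had a positive difference, Zbtb32-/- minus wild type, against 52.9% of all genes tested. The median member difference was 0.19 on the log2 scale, against 0.01 over all genes. At an adjusted p under 0.05 (limma, Benjamini-Hochberg over all genes) 0 members were called, against 0% of all genes, and the smallest adjusted p was 0.932. At an unadjusted p under 0.05 there were 4 members (12.9%), all positive: Blm, Brca2, Exo1 and Chek2. Over all genes 4.29% reached that level, 2.84% on the positive and 1.44% on the negative side. The count of 4 was 2 without Zbtb32-/- replicate 1, 2 or 5 or wild-type replicate 2 or 6, where 3.07% to 3.99% of all genes reached that level. It was 7 without wild-type replicate 1 or 3, where 6.71% and 9.44% of all genes did. Without wild-type replicates 2 and 6 together it was 2 (2.94% of all genes), Blm on the positive and Polh on the negative side. For Polh these were the lowest wild-type arrays. A 2-fold change lay outside the 95% interval for 29 of 31 members, all but Bard1 and Chek2, and for 95.3% of all genes.

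**Figure D1:**
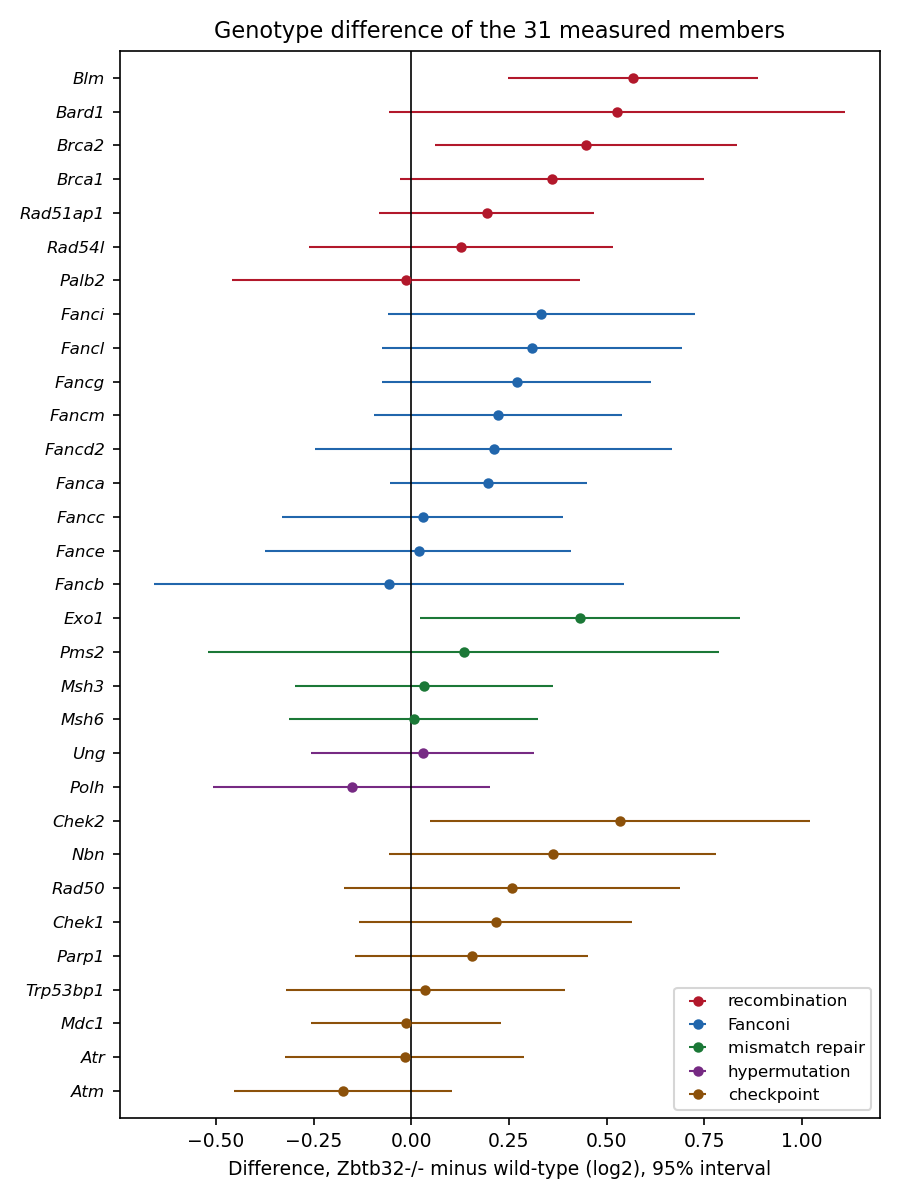
Difference between Zbtb32-/- and wild-type cells (horizontal axis, log2) for each of the 31 measured members, coloured by functional group. Points are limma estimates over 6 arrays per genotype, bars are 95% intervals, and 25 points lie right of 0.

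The mean over all 31 members was 7.33 ± 0.10 in Zbtb32-/- arrays and 7.15 ± 0.19 in wild-type arrays (SD over 6 arrays of each genotype, log2 scale). Their difference of 0.18 (SE 0.09 over arrays) was 0.13 when wild-type replicate 2 was left out and 0.09 when wild-type replicates 2 and 6 both were. These arrays had the lowest member means of the wild-type arrays, so leaving them out lowers the difference by construction. Per array the member mean ran from 7.16 through a median of 7.34 to 7.46 in Zbtb32-/- cells. In wild-type cells it ran from 6.89 through 7.11 to 7.38. The ranges overlapped, with every one of the 6 Zbtb32-/- values over the mean of the wild-type values.

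In the recombination group 6 of 7 members had a positive difference, with a median of 0.36, and Blm and Brca2 had an unadjusted p under 0.05. Blm, a helicase that dissolves recombination intermediates, ran from 7.80 through a median of 8.11 to 8.39 in Zbtb32-/- cells and from 7.08 through 7.70 to 7.76 in wild-type cells. The genotypes did not overlap for Blm, and wild-type replicates 2 and 6, at 7.31 and 7.08, lay farthest below the others. Such a separation with Zbtb32-/- higher was seen for 1 of 31 members and for 0.0803% of all genes. With Zbtb32-/- lower it was seen for 0 members and for 0.0736% of all genes. The Blm difference was 0.57 (SE 0.15, 1.48-fold), with a two-sided exact permutation p of 0.00216, the smallest that 6 against 6 arrays allow, and an adjusted p of 0.932. It was 0.48 to 0.63 on leaving out single arrays, and 0.39 without wild-type replicates 2 and 6.

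Brca2, which acts on single-stranded DNA at resected breaks, ran from 6.74 through 7.17 to 7.40 in Zbtb32-/- cells and from 5.95 through 6.74 to 7.11 in wild-type cells. Wild-type replicate 6 was the low array, and the genotypes overlapped. Its difference was 0.45 (SE 0.18, two-sided exact permutation p = 0.0368, adjusted p = 0.932), or 0.24 without wild-type replicates 2 and 6. Brca1, a ubiquitin ligase that promotes end resection, ran from 6.88 through 7.06 to 7.47 in Zbtb32-/- cells and from 5.96 through 6.87 to 7.13 in wild-type cells. Bard1, its partner, ran from 7.38 through 7.89 to 8.09 in Zbtb32-/- cells and from 6.13 through 7.46 to 7.98 in wild-type cells. For both partners wild-type replicate 2 was the lowest array. The Brca1 difference was 0.36 (SE 0.18) and 0.20 without wild-type replicate 2, and the Bard1 difference 0.53 (SE 0.27) and 0.29 without it. The 2 other probe sets of Bard1 differed by 0.16 and 0.28.

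The remaining recombination genes had smaller differences. Rad51ap1, a stimulator of strand invasion, averaged 6.91 ± 0.20 in Zbtb32-/- and 6.71 ± 0.24 in wild-type cells, a difference of 0.19 (SE 0.13). Rad54l, a DNA translocase that acts in strand pairing, averaged 7.42 ± 0.31 in Zbtb32-/- and 7.29 ± 0.35 in wild-type cells. Palb2, the bridge between Brca1 and Brca2, averaged 6.36 ± 0.53 in Zbtb32-/- and 6.37 ± 0.21 in wild-type cells (SD, n = 6 each). Its difference was -0.01 with a 95% interval of -0.46 to 0.43.

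**Figure D2:**
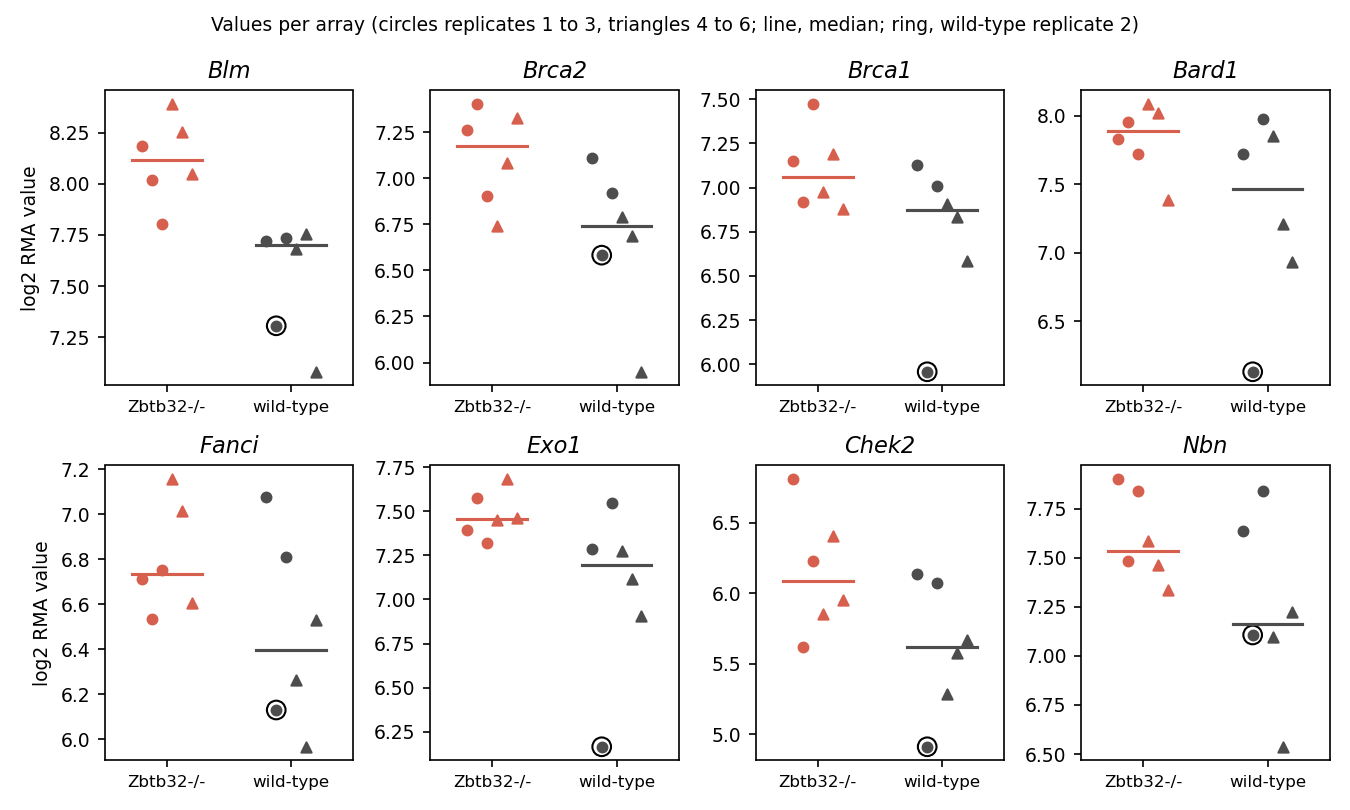
Log2 RMA value per array (vertical axis, a separate scale for each gene) of 8 members, with Zbtb32-/- arrays on the left and wild-type arrays on the right. Circles are replicates 1 to 3, triangles replicates 4 to 6, lines the group medians, and the ring marks wild-type replicate 2, the lowest array for Brca1, Bard1, Exo1 and Chek2; the groups are apart for Blm alone of these 8.

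In the Fanconi group 8 of 9 members had a positive difference, with a median of 0.21, and 0 had an unadjusted p under 0.05. Fanci and Fancd2 form the clamp that is loaded on DNA at a crosslink. Fanci ran from 6.53 through 6.73 to 7.16 in Zbtb32-/- cells and from 5.97 through 6.40 to 7.08 in wild-type cells, a difference of 0.33 (SE 0.18, exact permutation p = 0.130). Fancd2 ran from 6.15 through 6.48 to 7.30 in Zbtb32-/- cells and from 5.92 through 6.21 to 6.99 in wild-type cells, a difference of 0.21 (SE 0.21). The genotypes overlapped widely for both.

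Fancl, the ubiquitin ligase that modifies this clamp, ran from 7.09 through 7.34 to 7.67 in Zbtb32-/- cells and from 6.39 through 7.03 to 7.62 in wild-type cells. Its difference was 0.31 (SE 0.18) and 0.18 without wild-type replicate 2, the low array. Among the core complex subunits, Fancg differed by 0.27 (SE 0.16) and Fanca by 0.20 (SE 0.12). Fanca ran from 7.65 through 7.87 to 8.06 in Zbtb32-/- cells and from 7.38 through 7.65 to 7.94 in wild-type cells. Fancm, a translocase that anchors the core complex, differed by 0.22 (SE 0.15), and 4 of 6 Zbtb32-/- arrays lay above the highest wild-type array. Fancc and Fance, which bind each other in the core complex, differed by 0.03 (SE 0.17) and 0.02 (SE 0.18). Fancb, another core subunit, spread widest in the group within a genotype: 6.24 through 7.19 to 7.59 in Zbtb32-/- cells and 6.56 through 6.97 to 7.98 in wild-type cells, a difference of -0.06 (SE 0.28).

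All 4 mismatch repair members had a positive difference, with a median of 0.08, and Exo1 alone had an unadjusted p under 0.05. Exo1, an exonuclease that also resects breaks, ran from 7.32 through 7.46 to 7.68 in Zbtb32-/- cells and from 6.17 through 7.19 to 7.54 in wild-type cells. The Zbtb32-/- arrays lay close together, and wild-type replicate 2 lay far below the other wild-type arrays, which overlapped them. Its difference was 0.43 (SE 0.19, exact permutation p = 0.0238, adjusted p = 0.932) and 0.26 without that array. Msh6 and Msh3, subunits of mismatch recognition complexes, differed by 0.01 (95% interval -0.31 to 0.33) and 0.03 (-0.30 to 0.36). Msh6 ran from 7.72 through 8.02 to 8.34 in Zbtb32-/- cells and from 7.68 through 8.02 to 8.29 in wild-type cells. Pms2, an endonuclease subunit of the MutL complex, ran from 7.40 through 7.94 to 8.16 in Zbtb32-/- cells and from 6.13 through 8.01 to 8.24 in wild-type cells. Its difference of 0.13 (SE 0.30) was -0.18 without wild-type replicate 2.

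Of the 2 hypermutation genes 1 had a positive and 1 a negative difference, and neither had an unadjusted p under 0.05. Ung, the glycosylase that removes uracil from DNA, ran from 7.49 through 7.88 to 8.18 in Zbtb32-/- cells and from 7.64 through 7.77 to 7.98 in wild-type cells, a difference of 0.03 (SE 0.13). Polh, the translesion polymerase that makes many mutations at A:T pairs, ran from 7.16 through 7.41 to 7.60 in Zbtb32-/- cells and from 7.05 through 7.64 to 8.02 in wild-type cells. In 5 of 6 Zbtb32-/- arrays Polh lay below the wild-type mean, at a difference of -0.15 (SE 0.16, exact permutation p = 0.385). Without wild-type replicates 2 and 6 it was -0.38 (limma adjusted p = 1). These were the lowest wild-type arrays for Polh, at 7.16 and 7.05, so leaving them out lowers the difference by construction.

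In the checkpoint and break signalling group 6 of 9 members had a positive difference, with a median of 0.15. Chek2, the kinase downstream of Atm, ran from 5.62 through 6.09 to 6.81 in Zbtb32-/- cells and from 4.91 through 5.62 to 6.13 in wild-type cells. Its difference was 0.54 (SE 0.23, exact permutation p = 0.0649, adjusted p = 0.932) and 0.40 without wild-type replicate 2, the lowest array. The genotypes overlapped, and this probe set had the lowest mean of all members, near the filter on low values. Chek1, the kinase downstream of Atr, ran from 7.82 through 8.19 to 8.56 in Zbtb32-/- cells and from 7.48 through 8.02 to 8.21 in wild-type cells, a difference of 0.22 (SE 0.16).

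Nbn and Rad50 belong to the complex that binds broken ends and activates Atm. Nbn ran from 7.34 through 7.54 to 7.90 in Zbtb32-/- cells and from 6.54 through 7.16 to 7.84 in wild-type cells, a difference of 0.36 (SE 0.19, exact permutation p = 0.108). Its other probe set differed by -0.07 (SE 0.12), so the sign for Nbn depends on the probe set. Rad50 differed by 0.26 (SE 0.20). Parp1, which marks nicks and breaks with poly-ADP-ribose, ran from 8.52 through 8.81 to 8.91 in Zbtb32-/- cells and from 8.09 through 8.68 to 8.79 in wild-type cells, a difference of 0.15 (SE 0.14). The sensor kinases gave -0.18 (SE 0.13) for Atm and -0.02 (SE 0.14) for Atr. The scaffolds of break foci gave -0.01 (SE 0.11) for Mdc1 and 0.04 (SE 0.17) for Trp53bp1.

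**Figure D3:**
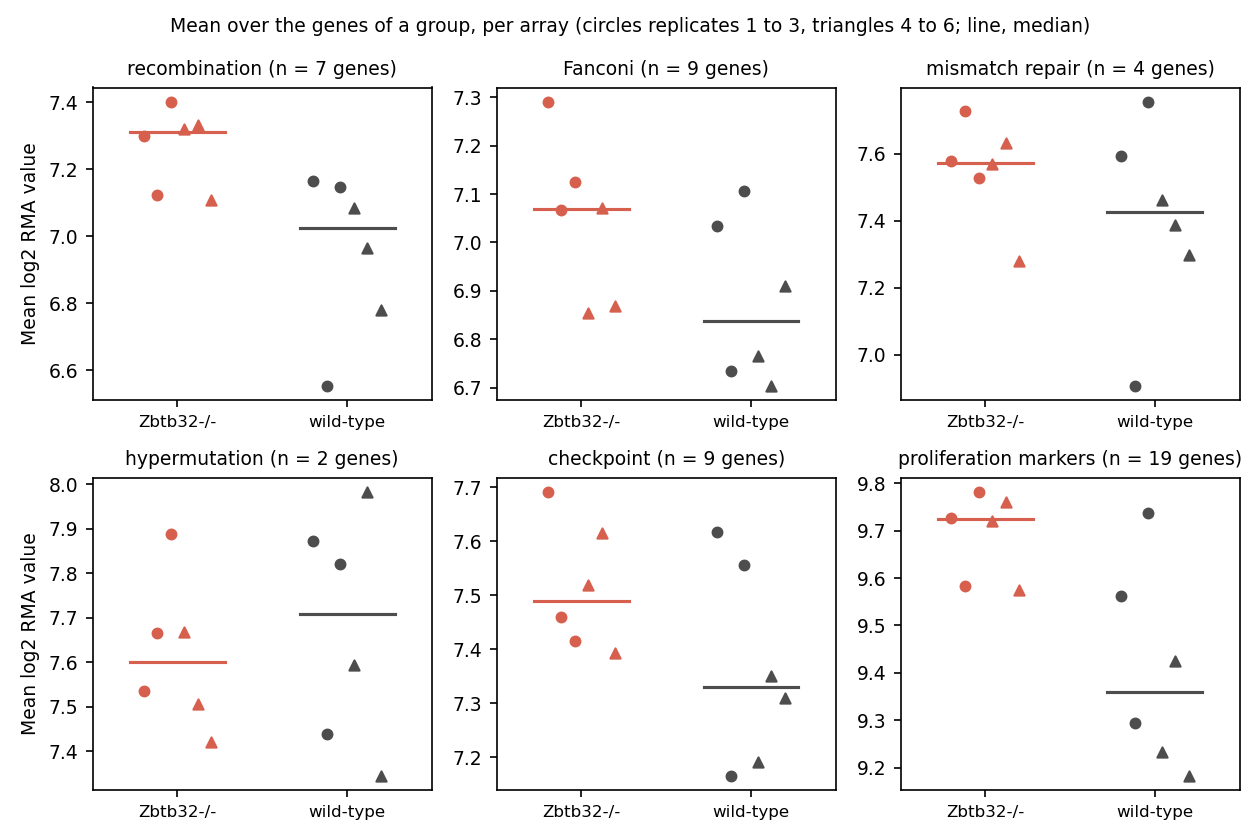
Mean log2 RMA value per array (vertical axis) over the members of each functional group and over 19 proliferation markers, with Zbtb32-/- arrays on the left and wild-type arrays on the right. Circles are replicates 1 to 3, triangles replicates 4 to 6 and lines the medians; the median is higher in Zbtb32-/- arrays in each panel except hypermutation, and the 2 genotypes overlap in every panel.

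Wild-type replicates 2 and 6 held many of the low readings of these genes. The lowest of the 12 arrays was a wild-type one for 28 of 31 members (90.3%), against 62.8% of all genes. It was wild-type replicate 2 for 12 members (38.7%), against 13.4% of all genes, and wild-type replicate 6 for 7 members, against 12.2% of all genes. Wild-type replicate 2 was the highest array for 0 members, but for 18.2% of all genes, the largest share of any array. The mean correlation with the other arrays across genes was lowest in wild-type replicate 2, at 0.921. It was 0.930 in Zbtb32-/- replicate 6, 0.936 in wild-type replicate 6 and 0.937 in wild-type replicate 4, and reached 0.962 over the 12 arrays. The SD was larger in wild-type than in Zbtb32-/- cells for 24 of 31 members, and for 69.9% of all genes.

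**Figure D4:**
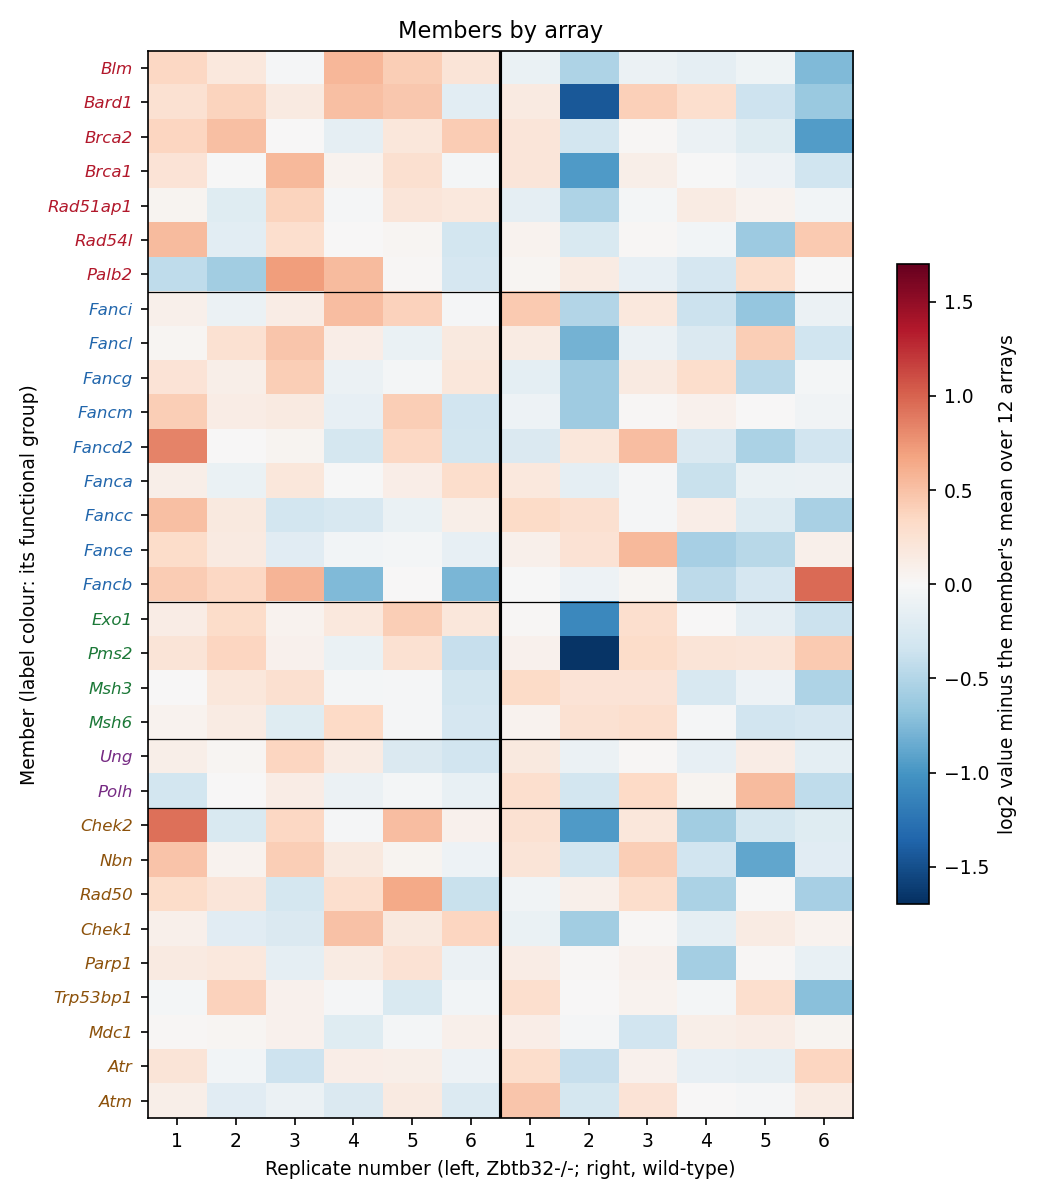
Log2 value of each member (rows, by functional group) minus its own mean over the 12 arrays, with the 6 Zbtb32-/- arrays on the left and the 6 wild-type arrays on the right. Wild-type replicate 2 shows the deepest low readings, for Pms2, Bard1, Exo1, Brca1 and Chek2.

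Proliferation markers, genes of replication and mitosis, also had positive differences, in 19 of 19 measured, against 52.9% of all genes tested. Their median was 0.28, and 8 had an unadjusted p under 0.05, all positive, against 2.84% of all genes on that side. After adjustment 0 of these markers passed. The values were 0.45 for Birc5 and 0.37 for Nusap1, both needed in mitosis, and 0.20 for Mki67, a coat protein of mitotic chromosomes. Their mean per array ran from 9.57 through 9.72 to 9.78 in Zbtb32-/- cells and from 9.18 through 9.36 to 9.74 in wild-type cells. It was 9.18 in wild-type replicate 6, 9.23 in wild-type replicate 4 and 9.30 in wild-type replicate 2. In such bulk samples, a smaller share of dividing cells and less of a transcript per cell cannot be told apart.

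Markers of other marrow cells varied between arrays, although the sort was set against Ly6g and CD11b, surface proteins of neutrophils and monocytes. Neutrophil markers had a positive difference of means in 12 of 12. The median of their means per array was not higher in Zbtb32-/- cells, at 10.25 against 10.28 in wild-type cells. The means ran from 8.99 to 12.22 in Zbtb32-/- cells, the highest being Zbtb32-/- replicate 6. In wild-type cells they ran from 7.79 to 10.89, the lowest being wild-type replicate 2. Erythroid markers, 8 of 9 positive, ran from 7.01 to 7.64 in Zbtb32-/- and from 6.31 to 8.07 in wild-type cells, again lowest in that array. Monocyte markers, 1 of 10 positive, ran from 7.29 to 8.57 in Zbtb32-/- and from 6.74 to 9.13 in wild-type cells. T and NK cell markers, 1 of 9 positive, ran from 6.25 to 6.51 in Zbtb32-/- and from 6.31 to 7.24 in wild-type cells. B cell markers, 2 of 10 positive, ran from 7.63 to 8.27 in Zbtb32-/- and from 7.25 to 8.76 in wild-type cells. The monocyte and B cell means were lowest in wild-type replicate 2 as well. Plasma cell markers were positive for 9 of 12, with Xbp1 at 0.16 (SE 0.11) and Jchain at -0.11 (SE 0.05). The mean over the 12 ran from 10.99 to 11.70 in Zbtb32-/- and from 10.89 to 11.68 in wild-type cells. Over all genes tested 52.9% had a positive difference. With the mean of the neutrophil, erythroid, monocyte and T and NK cell markers as a covariate, the mean member difference was 0.18. These lists differed between the genotypes in opposite directions, which partly cancel in that mean. The neutrophil markers ranged widest among arrays, from 7.79 to 12.22, so the covariate does not reflect the cell types equally. The parts of other cells and of dividing cells in the differences were not tested.

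Other genes of the same pathways gave 0 calls after adjustment in each list, against 0% of all genes. Over all genes tested 52.9% were positive, and at an unadjusted p under 0.05 there were 2.84% positive and 1.44% negative. Of other recombination genes 14 of 19 were positive (median 0.18, 3 at an unadjusted p under 0.05, all positive). They included Rpa3, a subunit of the single-strand binding protein, at 0.66 (SE 0.20), Rad54b, a relative of Rad54l, at 0.59 (SE 0.19) and Nucks1 at 0.18. All 19 of 19 other checkpoint genes were positive (median 0.29, 2 at an unadjusted p under 0.05), among them the fork protection factor Timeless at 0.37 (SE 0.15), the Atr activator Topbp1 at 0.30 (SE 0.13) and the cohesin subunit Smc1a at 0.14 (SE 0.15). Of other Fanconi genes 9 of 11 were positive (median 0.15, 0 at that level), with Fancf at -0.20, the ubiquitin conjugase Ube2t at 0.27 and Faap20 at 0.15. Of other mismatch repair genes 8 of 9 were positive (median 0.14, 2 positive and 1 negative at that level), with Mlh3 at -0.40, the polymerase delta subunit Pold2 at 0.32 and the clamp Pcna at 0.20.

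The remaining lists had medians of at most 0.07. Of other hypermutation and base excision genes 12 of 18 were positive (median 0.07, 0 at an unadjusted p under 0.05), with the glycosylases Neil3 at 0.31 and Mbd4 at 0.34. End joining genes, which repair breaks without a template, were positive for 5 of 9 (median 0.07), and the 2 at an unadjusted p under 0.05 were negative, Nhej1 at -0.50 (SE 0.16) and Lig4 at -0.34 (SE 0.15). Targets of p53, a transcription factor that damage activates, were positive for 9 of 17 (median 0.01, 0 at that level), with Mdm2 at 0.35 (SE 0.23), Perp at -0.20 and Btg2 at -0.07. The differences between these lists were not tested.

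The arrays were also split into replicates 1 to 3 and replicates 4 to 6, a grouping taken from earlier results on these arrays. The labels name no batch. Because the grouping was seen in these same values, the limma p-values between the sets describe it and do not test it independently. Each set holds 3 arrays of each genotype. Between the sets, with genotype as a term, 1 of 31 members passed an adjusted p of 0.05 by limma, against 6.45% of all genes, 4.45% lower and 2% higher in replicates 4 to 6. On leaving out single arrays the share of all genes ran from 1.59% (without wild-type replicate 1) to 7.96% (without Zbtb32-/- replicate 5). It was 1.59% to 2.84% without Zbtb32-/- replicate 1, 3 or 6 or wild-type replicate 1, 3, 4 or 5, and 3.58% without Zbtb32-/- replicate 2. That member was Msh3, which was lower in replicates 4 to 6 by a difference of -0.42 (SE 0.11, adjusted p = 0.0381). Its means in replicates 4 to 6 and 1 to 3 were 6.72 and 7.00 in Zbtb32-/- cells, and 6.55 and 7.11 in wild-type cells. The call held without Zbtb32-/- replicate 1, 4 or 5 and was lost without any 1 of the other 9 arrays (adjusted p = 0.0517 to 0.0872). It was also lost with the markers of other cells as a term (difference -0.35, adjusted p = 0.184), where 0.181% of all genes passed. The difference itself stayed between -0.47 and -0.35 on leaving out single arrays. Without wild-type replicate 6, Fancb passed in its place. Of the 31 members 21 (67.7%) lay lower in replicates 4 to 6, against 61.3% of all genes. At an unadjusted p under 0.05, 4 members were lower there (17.9% of all genes), with Fancd2 at -0.45, Nbn at -0.43 and Fance at -0.39 beside Msh3, and Chek1, at 0.35, was the 1 higher (8.01% of all genes).

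Within the 2 sets the genotype difference of the members averaged 0.18 in replicates 1 to 3 and 0.18 in replicates 4 to 6, while single genes differed in sign. After adjustment 0 members passed in replicates 1 to 3 (0% of all genes) or in replicates 4 to 6 (0.00669% of all genes). Of the 31 members 14 were positive in both sets, 2 were negative in both and 15 had opposite signs. Blm differed by 0.41 in replicates 1 to 3 and 0.72 in replicates 4 to 6. In the same order, Exo1 gave 0.43 in each set, Chek2 0.51 and 0.56, Bard1 0.56 and 0.50, and Brca2 0.32 and 0.57. Fanci gave -0.01 and 0.67, Rad50 -0.04 and 0.55, Pms2 0.65 and -0.38, and Fancb 0.47 and -0.58. In limma's test of the interaction between genotype and set, 0 members passed after adjustment, against 0% of all genes. Fancb, at an interaction of -1.06, was the 1 member with an unadjusted p under 0.05, against 3.87% of all genes, and had an adjusted p of 0.998.

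**Figure D5:**
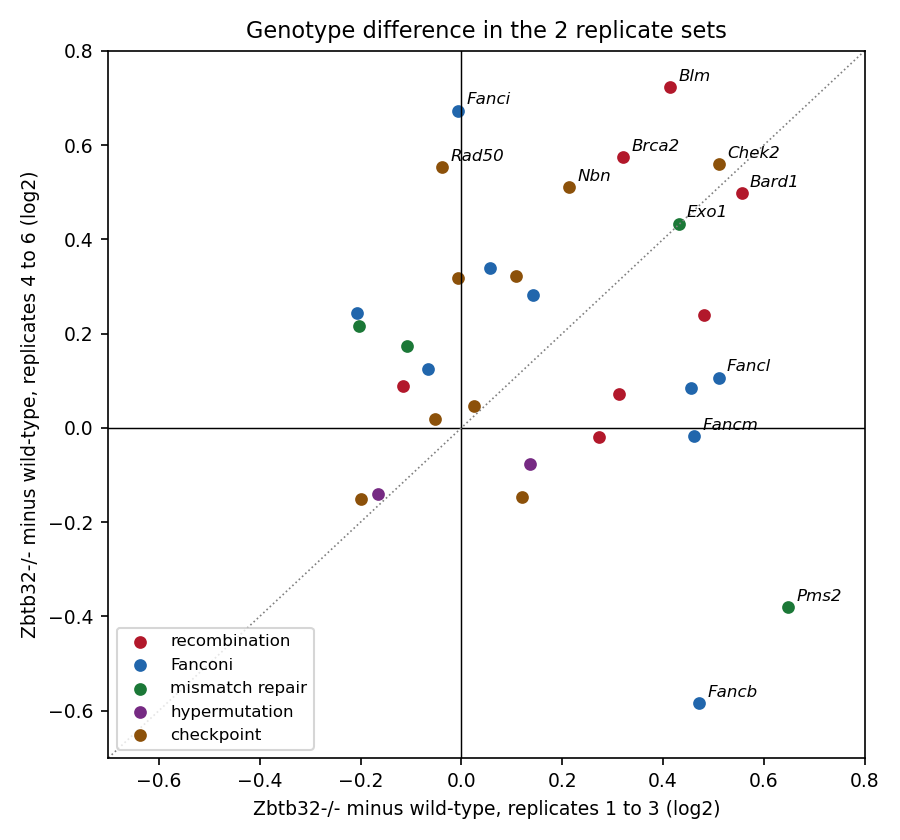
Genotype difference, Zbtb32-/- minus wild type, of each member in replicates 1 to 3 (horizontal axis, log2) and in replicates 4 to 6 (vertical axis, log2), each from 3 arrays per genotype. The 14 members above and right of 0 were positive in both sets, and the dotted line marks equal differences.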

How the data were processed

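The authors deposited 1 log2 value per probe set and array. The submitters' processing notes name Affymetrix Expression Console and RMA, without versions, and do not say whether all arrays were normalized together. RMA evens out the distributions of arrays, so a difference in total RNA is not visible, and values of different probe sets share no scale. Over the genes tested, array medians still ran from 7.01 to 7.20. With renewed quantile normalization 23 members were positive, and their median difference was 0.12, against 0.19 in the main fit. Per the labels' protocols, RNA was amplified with a kit for small inputs, which can widen the spread between arrays. The precision is limited by the 12 arrays: the 95% interval of a member's difference reached a median of 0.36 log2 units to either side. All columns belong to labelled samples, and 0 pairs were identical.

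Probe sets were named through the platform annotation: 21789 of 35556 name 1 gene, 1621 several and 12146 none here. Genes with a mean above the 25th percentile, 5.5, were kept. Genotype, replicate set and their interaction were tested in R 4.3.3 with limma 3.58.1 (eBayes with a trend). P-values were adjusted over 14953 genes. Exact permutation tests used all 924 assignments and are two-sided. Python 3.11.15, pandas 2.3.3 and matplotlib 3.10.9 made the tables and plots. Data were also simulated with 14953 genes and 6 arrays a group, with noise drawn independently for each gene. Changes were set in 67 genes at 0.5, 67 at 1 and 66 at 2 (log2). Of these 32.8%, 80.6% and 95.5% were recovered, with 7 false calls. Variation shared by the genes of an array was not simulated. The larger changes also eased the adjusted threshold for those of 0.5, while 0 measured genes passed for genotype. These shares therefore need not hold for the measured arrays.

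The members, lists, tests and alternatives were chosen with earlier results of these data known. All members are named, with the lowest, median and highest array of each genotype for at least the 2 of each group with the smallest p and the 1 with the highest mean. Of the other pathway lists, the 2 genes with the smallest p and the 1 with the highest mean are named. Some genes are in 2 of these lists. Of 205 entries in other lists, 187 matched a probe set. As alternatives, the scaling (quantiles again, medians), the filter, the averaging of probe sets and the variance model were varied, beside array weights, blocks, replicate sets, a marker covariate and left-out arrays. Added after the data were seen were left-out arrays and the marker term in the comparison of replicate sets. No single-gene probe set used here names Xrcc2.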

Additional observations from a re-analysis of the deposited data

Results flagged for a closer look

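Within the 6 arrays of a genotype, 1 value stood far from the others, by Dixon's 95% criterion, in 6 of 62 groups of values, all in wild-type cells. Chance gives about 1 such value in 20 groups. No cause was tested. Wild-type replicate 2 was the low array for Pms2, at 6.13, and for Fancm, at 5.74. Wild-type replicate 6 was the high array for Fancb, at 7.98, and the low array for Trp53bp1, at 6.46. Wild-type replicate 4 was low for Parp1, at 8.09, and wild-type replicate 3 for Mdc1, at 7.91.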

How the results depend on the processing

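After adjustment, 0 genes differed between the genotypes under the alternatives, except 1 gene that is no member in replicates 4 to 6 only. The smallest adjusted p of a member under any alternative was 0.521. Members with an unadjusted p under 0.05 numbered 2 in replicates 1 to 3 only (2.28% of all genes), 2 without wild-type replicates 2 and 6 (2.94%), and 2 to 7 on leaving out single arrays (3.07% to 9.44%). The mean difference of the members stayed above 0 in all alternatives, at 0.09 to 0.22. Blm kept an unadjusted p under 0.05 in every alternative except replicates 1 to 3 only. The 12 arrays limit what can be seen: the 95% interval of a member's difference reached a median of 0.36 to either side. The causes of the changes of sign below were not tested.

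In replicates 1 to 3 only, the difference was 0.47 for Fancb, -0.067 for Fancc, -0.21 for Fance, -0.0065 for Fanci, -0.11 for Msh3, -0.20 for Msh6, -0.0076 for Parp1, 0.12 for Mdc1 and -0.038 for Rad50. In replicates 4 to 6 only, it was 0.088 for Palb2, -0.019 for Rad54l, -0.017 for Fancm, -0.38 for Pms2, -0.077 for Ung and 0.019 for Atr. Without wild-type replicates 2 and 6 it was 0.016 for Palb2, 0.15 for Fancb, -0.033 for Fancc, -0.033 for Msh3, -0.14 for Pms2, -0.030 for Ung and -0.13 for Trp53bp1. With renewed quantile normalization it was 0.018 for Palb2, -0.024 for Fance, -0.076 for Msh6 and -0.045 for Ung. With array weights it was 0.14 for Fancb and -0.0060 for Trp53bp1, and with the marker covariate 0.0085 for Palb2. On leaving out single arrays it ran from -0.16 to 0.10 for Palb2, -0.18 to 0.13 for Fancb, -0.078 to 0.096 for Fancc, -0.091 to 0.13 for Fance, -0.068 to 0.10 for Msh3, -0.060 to 0.064 for Msh6, -0.18 to 0.24 for Pms2, -0.041 to 0.096 for Ung, -0.10 to 0.054 for Atr, -0.079 to 0.027 for Mdc1 and -0.10 to 0.10 for Trp53bp1.

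The labels give both genotypes replicate numbers 1 to 6. Deviations of same-numbered arrays from their group means correlated across genes at 0.468, 0.019, 0.220, 0.034, 0.135 and 0.156, all positive. Of the 12 arrays 4 correlated best with their own number, among the 6 arrays of the other genotype. Same-numbered arrays also lie in the same replicate set, which was not separated from pairing here. Whether same-numbered arrays were paired was not tested. The labels do not say that the numbers pair mice, so the main fit used no block. With the replicate number as a block, 0 genes passed after adjustment, and the mean difference of the members was 0.18. In that fit 5 members had an unadjusted p under 0.05, Brca1 and Nbn joining and Exo1 dropping out. The share of all genes at that level was 6.11%, against 4.29% without the block.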
